A study of Homo sapiens with 8 samples.

Results

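The regions described here are the promoter-array probes that lie downstream of the transcription start, more than 800 bp into or past the gene. A probe was included when it was no control spot, was not described by the array as a divergent promoter, and its nearest RefSeq start lay more than 800 bp upstream of it. Of 474411 probes, 176502 met this rule (37.2%), under 16516 gene names. The arrays compared chromatin immunoprecipitated with a SMAD3 antibody (SMAD3 IP, Cy5) with a mock IP (Cy3) in A549, an established human line of alveolar epithelial type that was derived from a lung adenocarcinoma. One set of cultures was left unstimulated (basal level) and the other received TGFβ1 at 2 ng/ml, with no vehicle named for the basal cells. There were 2 replicates per condition, called biological replicates in the sample labels, and 2 slides carrying separate probe sets per replicate, hence 8 arrays. The labels do not say whether the replicates came from separate cultures, so the p-values measure the spread between these samples. The mock antibody is an anti-flag antibody in the paper and a control IgG in the labels, and the stimulation time is 30 min in one place of the sources and up to 2 h in another.

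SMAD3 is a receptor-regulated transcription factor. The activated TGFβ receptor phosphorylates it, and it then enters the nucleus with SMAD4, where it binds short DNA elements together with partners such as AP-1 or FOXA proteins. Its sites are found at promoters and also at enhancers within introns or far from a start. The probes described here cover the first exons and introns of genes, and some lie near genes of microRNAs, short RNAs that pair with messenger RNAs through a seed at their 5′ end.

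Mature sequences of 7 microRNAs with downstream probes at their genes are shown first. They are the 5 with the lowest ratios around their gene after TGFβ1 relative to the basal level, whose values are given further on, and miR-200c and miR-203a, which are known from epithelial cells. Capitals mark the seed (bases 2 to 8). Sequences and positions are those of RefSeq on GRCh38.p14. The array names no genome build, so only annotated distances are given for its probes. All 7 seeds differ.
hsa-miR-657 (chr17:81125291-81125313, minus strand): gGCAGGUUcucacccucucuagg
hsa-miR-185-5p (chr22:20033153-20033174, plus strand): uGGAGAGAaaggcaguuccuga
hsa-miR-199b-3p (chr9:128244745-128244766, minus strand): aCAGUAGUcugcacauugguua
hsa-miR-26b-5p (chr2:218402657-218402677, plus strand): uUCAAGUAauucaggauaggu
hsa-miR-208a-3p (chr14:23388602-23388623, minus strand): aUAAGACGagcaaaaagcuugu
hsa-miR-200c-3p (chr12:6963742-6963764, plus strand): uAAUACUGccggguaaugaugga
hsa-miR-203a-3p (chr14:104117469-104117490, plus strand): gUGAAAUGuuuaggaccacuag

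Most of the downstream probes lay close behind the promoter. Their distance to the nearest start ran from 801 to 984314 bp with a median of 2118 bp, and 121240 of them lay at 801 to 3000 bp. Another 29614 lay beyond 10000 bp and 9630 beyond 50000 bp. The array describes 93.0% as inside a gene, 3.87% as downstream of a gene and 3.08% as promoter. After 543 probes marked as outliers were left out, 175959 remained.

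The value of a probe is its SMAD3 IP signal over its mock IP signal as a log2 ratio, relative to the median probe of its array. A probe was called measured when both channels were well above background on every array that carried it. Of the downstream probes, 52104 were measured (29.6%), against 67.4% of the probes within 250 bp of a start (the core), 55.2% of those further downstream but within 800 bp and 20.8% beyond 3000 bp upstream. Of the measured downstream probes, 8 were saturated on at least 1 array. Probe length moved with this share, since 87.4% of the 45-base downstream probes were measured and 1.28% of the 60-base ones, and downstream probes averaged 54.05 bases against 48.45 in the core. Among 45-base probes alone the core had 93.6% measured, which is much closer to the 87.4% downstream than over all lengths.

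Measured downstream probes carried less SMAD3 IP relative to mock IP than the core. Their median log2 ratios were -0.50 and -0.64 in unstimulated replicates 1 and 2, and -0.68 and -0.77 after TGFβ1. The core stood at 0.23 and 0.21 at the basal level and at 0.12 and 0.12 after TGFβ1. The downstream median lay below the core in all 4 replicates, by 0.73 to 0.89 on the log2 scale. Among 45-base probes alone the difference was -0.80 to -0.95. After loess normalization within each array the downstream medians themselves came to lie between -0.021 and 0.0018, while the difference to the core was -0.71 to -0.88.

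A change of this gap between the conditions could not have passed a test with these replicates. Over measured probes it was -0.79 on average at the basal level and -0.85 after TGFβ1 (exact two-sided permutation test over the 4 replicates, p = 0.667, where 2 against 2 cannot go below 0.33). Over all probes, most of them dim, it was -0.0467 and -0.0217 at the basal level and -0.0342 and -0.0273 after TGFβ1 (p = 1 by the same exact permutation test).

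Over the first 2500 bp the ratio was lower farther from the start, with different steps across the boundary in the conditions. Just outside the rule, at 701 to 800 bp, 42.99% of probes were measured and the basal medians were -0.19 and -0.31. Just inside, at 801 to 900 bp, 38.7% were measured and the medians were -0.28 and -0.38. Across the same boundary the TGFβ1 medians went from -0.40 and -0.50 to -0.39 and -0.45. In basal replicate 1 the median went down to -0.55 between 2000 and 2500 bp and stood at -0.50 beyond 50000 bp. The share of its measured probes with a ratio over 1.5 went from 28.5% at 801 to 900 bp to 21.4% between 2000 and 2500 bp. The share measured was 25.3% between 2000 and 2500 bp, 37.7% at 5001 to 10000 bp and 21.0% beyond 50000 bp.

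**Figure D1:**
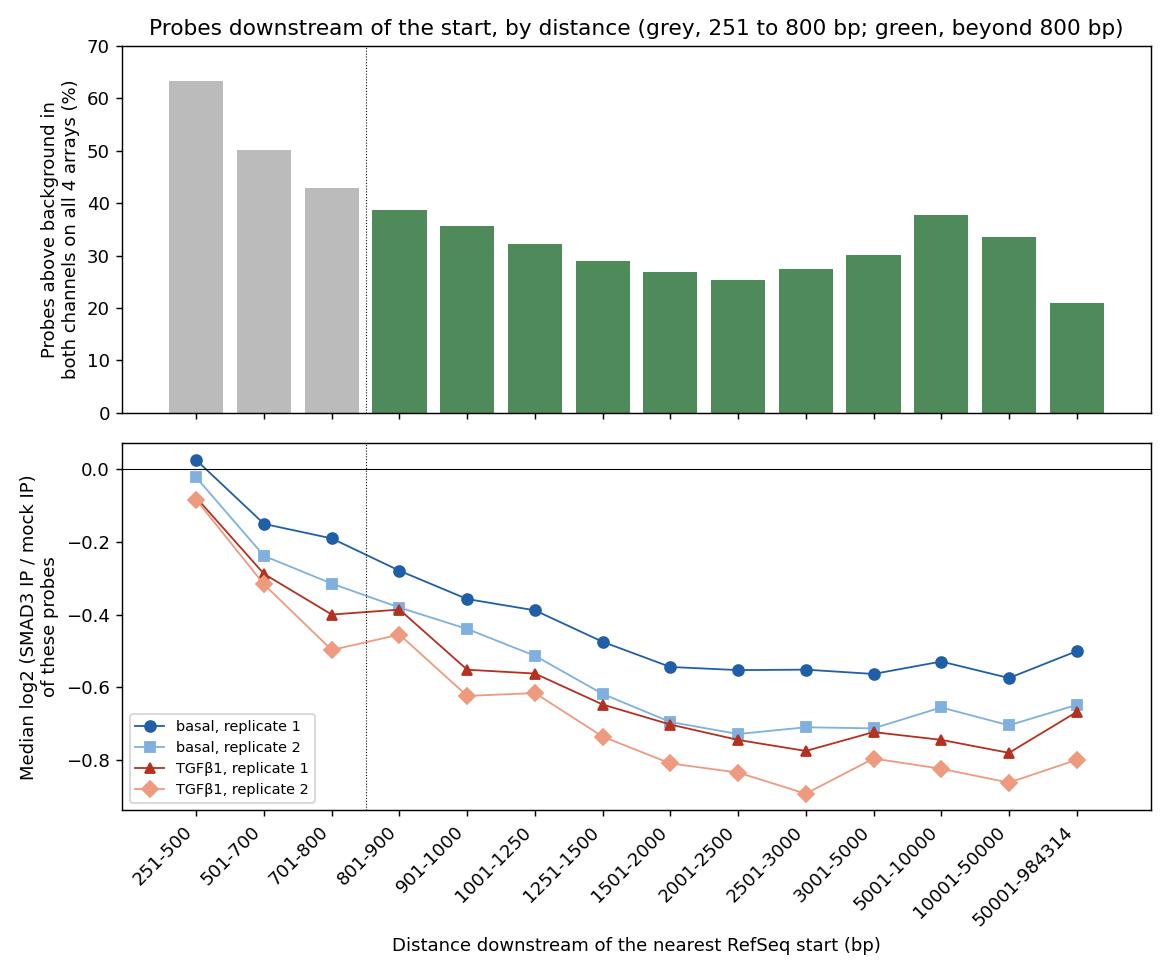
Probes by annotated distance downstream of the nearest start, with the share measured in percent (bars, green for the described probes) and the median SMAD3 IP over mock IP (log2) of measured probes in each replicate (lines). The share measured falls from 42.99% just before the 800 bp boundary to 25.3% between 2000 and 2500 bp, and past the boundary the medians fall over the same distances in all 4 replicates.

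Downstream probes with a second start nearby had somewhat higher ratios, though at the basal level the nearest were not the highest. The 4864 downstream probes that lay within 250 bp of a start annotated from another source were measured in 40.3% of cases, and their medians were -0.44, -0.55, -0.52 and -0.54 in the 4 replicates. The 12095 probes with another start farther off but within 800 bp had 37.4% measured and medians of -0.32, -0.42, -0.52 and -0.55. The 159000 probes with no other start within 800 bp had 28.7% measured and medians of -0.52, -0.67, -0.71 and -0.80. The difference between the first and the last of these was in the same direction in every replicate and smaller than that between these probes and the core.

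Replicates of a condition resembled each other far more than the conditions did. Across the 52104 measured downstream probes the log2 ratio correlated with r = 0.94 between basal replicates and 0.95 between TGFβ1 replicates, and with 0.23 to 0.26 between replicates of different conditions. Each channel alone was closer between conditions, with 0.65 to 0.71 in the SMAD3 IP and 0.52 to 0.59 in the mock IP. These are correlations across probes of the same arrays, which share probe affinity and are not independent.

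Neighbouring probes changed together. The change of the ratio after TGFβ1 correlated with r = 0.38 over 13039 pairs of measured downstream probes that lay 1 to 150 bp apart. It was 0.20 between 250 and 350 bp, 0.075 at 501 to 750 bp and 0.0038 at 1001 to 1500 bp. The pairs share arrays and DNA fragments, so the values are a description.

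For tests, neighbouring probes were joined into stretches, which are runs with the same nearest start, gaps of at most 1000 bp and at least 3 measured probes. Of 18030 downstream stretches with 3 or more probes, 6633 were tested (36.8%), in 5921 genes, with a median of 5 measured probes. The mean log2 ratio of a stretch differed between replicates by a median of 0.167 at the basal level and 0.235 after TGFβ1, and changed by a median of 0.70 in size between the conditions. The test was limma over all 21185 stretches of every position class, with Benjamini-Hochberg adjustment at 0.05.

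At the basal level 698 downstream stretches were enriched, meaning a ratio of SMAD3 IP to mock IP over 1.5 (log2 0.585) and an adjusted p under 0.05. This was 10.5% of them against 21.1% of all stretches. After TGFβ1 512 were enriched (7.72% against 16.9% of all). Both shares were below those of the core, where 42.96% and 36.1% were enriched, and of the stretches between the core and 800 bp downstream, with 32.5% and 27.2%. They were above those of the stretches beyond 3000 bp upstream, with 7.998% and 5.23%. The order of the conditions rests on the background correction, since normexp gave 260 enriched at the basal level and 434 after TGFβ1.

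The reverse call was more frequent. At the basal level 3283 downstream stretches had a ratio of mock IP to SMAD3 IP over 1.5 (49.5% against 39.8% of all), and 3870 after TGFβ1 (58.3% against 46.8%). This balance depends on the normalization within each array. Loess, centred in the same way, gave 1602 SMAD3-enriched against 1638 mock-enriched stretches at the basal level and 1523 against 1851 after TGFβ1. The counts also depend on the background correction. Normexp gave 260 SMAD3-enriched against 484 mock-enriched stretches at the basal level and 434 against 1027 after TGFβ1. In both conditions 203 stretches were SMAD3-enriched (3.06% against 10.0% of all) and 2305 mock-enriched (34.8% against 26.5%). Another 333 were SMAD3-enriched in one condition and mock-enriched in the other (5.02% against 5.62%).

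**Figure D2:**
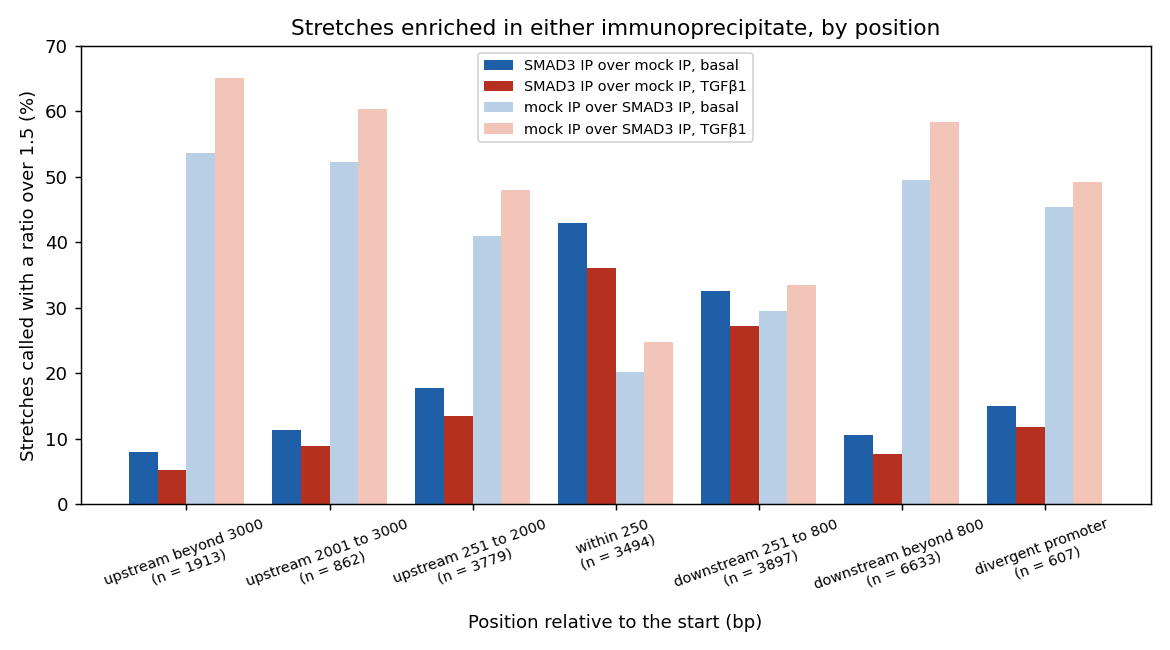
Share of tested stretches, in percent, that were enriched in SMAD3 IP or in mock IP over 1.5-fold in each condition, by position class. The downstream stretches have 10.5% enriched at the basal level and 7.72% after TGFβ1, below the core (within 250 bp) at 42.96% and 36.1%.

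After TGFβ1, 1493 downstream stretches were higher (22.5% against 22.6% of all stretches) and 2394 lower (36.1% against 35.8%). These shares are at the background of the array. In all 3887 were called (58.6% against 58.4% of all), and the replicates of the conditions did not overlap in 5357 (80.8% against 80.4%). Changes over 4-fold were called in 728 stretches, of which 477 were lower. No such count was made over all stretches, so nothing particular to the downstream ones is read from it. The median size of the change was 0.70 in downstream stretches and 0.70 over all stretches. The median change was -0.20 over the downstream stretches and -0.20 over all stretches, and loess brought it to -0.058 and -0.053. Loess called 1921 higher and 2221 lower, so that the higher ones made up 46.4% of the calls in place of 38.4%. Normexp background correction called 340 higher and 656 lower, and 978 of the 3887 calls were shared with it.

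The ratio can change through either channel, and the mock IP accounted for more of it. Of the 1493 higher stretches, 272 had a SMAD3 IP signal raised by over 1 on the log2 scale and 742 a mock IP signal lowered by over 1, with 26 showing both. The median change in the higher stretches was 0.12 in the SMAD3 IP and -0.99 in the mock IP. In the 2394 lower stretches it was -0.37 in the SMAD3 IP and 0.80 in the mock IP. The mock IP moved more than the SMAD3 IP in 66.6% of the higher and 60.3% of the lower stretches. Its changes had an SD of 1.41 against 1.02 for the SMAD3 IP. The channels were not compared in this way over all stretches, so this split is not read as particular to the downstream ones. What makes the mock IP differ between the conditions was not tested.

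**Figure D3:**
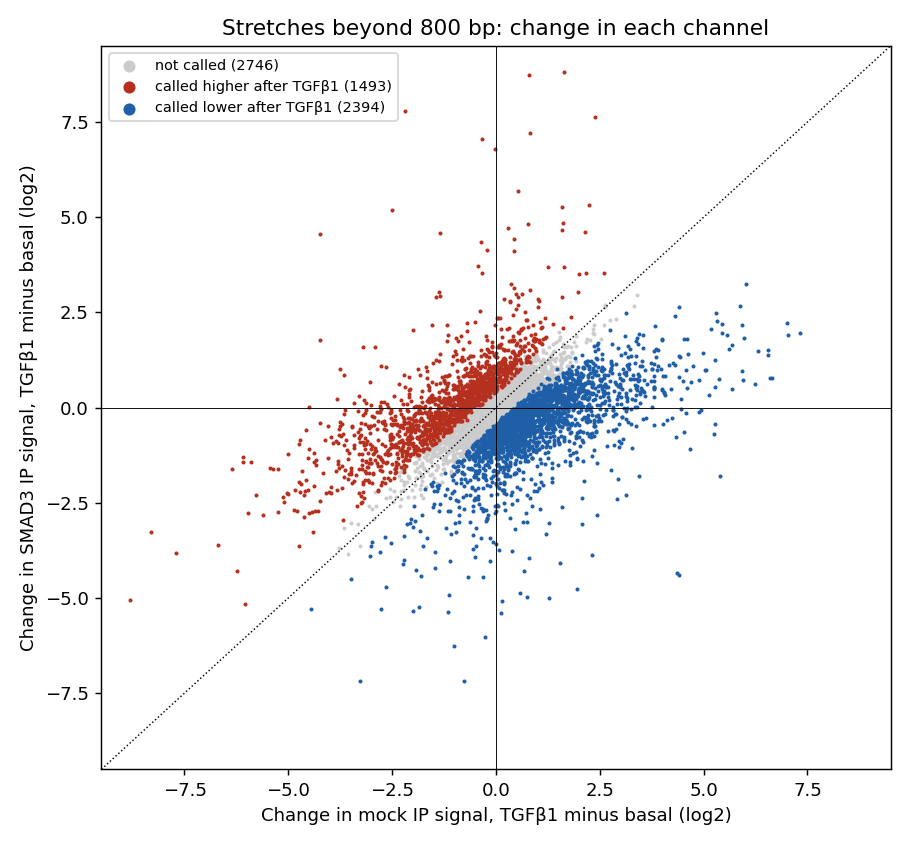
Change of the SMAD3 IP signal against change of the mock IP signal after TGFβ1 (log2, centred) for the 6633 tested downstream stretches, coloured by call, with a dotted line where both channels change alike. Many of the 1493 higher stretches lie at low mock IP change rather than at high SMAD3 IP change, with medians of -0.99 and 0.12.

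With the values as centred here the highest rise was in PIAS4, which encodes a SUMO ligase that acts on SMAD proteins. Its stretch (chromosome 19, 839 to 2173 bp downstream, 3 of 6 probes measured) had log2 ratios of -1.80 and -1.54 at the basal level and 8.38 and 8.09 after TGFβ1. The 3 measured probes lay between -3.14 and 0.57 in the basal replicates and between 6.62 and 9.55 after TGFβ1, and the one at 1668 bp went from -3.14 and -3.13 to 9.55 and 8.14. The change was 9.90 ± 0.20 (SE, n = 2 per condition, limma adjusted p = 2.06e-07), with the SMAD3 IP up by 7.79 and the mock IP changed by -2.18. Under normexp the change was 5.24 and with all probes of the stretch 4.998, below the 5.64 and 6.498 of PLEK2, so the rank depends on the setting. The core of PIAS4, tested as a stretch of its own, changed by -0.26 (limma adjusted p = 0.248).

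MYO5C, an unconventional myosin of epithelial membrane traffic, rose by the SMAD3 IP channel. Its stretch (chromosome 15, 943 to 2371 bp, 4 of 9 probes) stood at -0.01 and -0.68 at the basal level and at 7.70 and 7.39 after TGFβ1. The change of 7.89 ± 0.26 (limma adjusted p = 6.49e-07) had a SMAD3 IP change of 8.75 and a mock IP change of 0.79. MCM7, a subunit of the replicative helicase, had a similar pattern (chromosome 7, 837 to 3203 bp), with -0.71 and -0.89 before and 6.89 and 6.5 after TGFβ1. Its SMAD3 IP changed by 7.06 and its mock IP by -0.33.

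In PLEK2 and CD320 both channels moved apart. PLEK2 encodes a pleckstrin-family protein of the cytoskeleton, and its stretch (chromosome 14, 1326 to 2414 bp) went from -4.73 and -4.70 to 4.14 and 3.93. The change was 8.75 ± 0.19 (limma adjusted p = 2.06e-07), 4.57 in the SMAD3 IP and -4.25 in the mock IP. CD320, the cellular receptor for transcobalamin, went from -3.02 and -3.07 to 4.84 and 4.36 (chromosome 19, 836 to 2440 bp). The remaining stretch among the 6 largest rises was C8orf33, with -1.14 and 0.18 before and 7.23 and 6.41 after TGFβ1, where the basal replicates differed by more than in the others. The C8orf33 stretch rests on 3 of 10 probes. Its change of 7.30 came to 2.16 with all probes and to 4.03 with probes bright in at least 1 channel.

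With the values as centred here the largest fall was in MOB3A, a member of the MOB kinase-activator family. Its stretch (chromosome 19, 820 to 3436 bp, 3 of 5 probes) stood at 5.56 and 5.05 at the basal level and at -4.05 and -3.08 after TGFβ1. It fell by 8.87 ± 0.33 on the log2 scale (limma adjusted p = 1.05e-06), with -4.40 in the SMAD3 IP and 4.40 in the mock IP. Under normexp the change was -4.13, against -6.70 in SPRY4. SPRY4, an inhibitor of receptor tyrosine kinase signalling (chromosome 5, 835 to 2459 bp), went from 4.16 and 3.92 to -4.32 and -4.74. Within SPRY4 the probe at 1278 bp went from 8.60 and 8.27 to -6.47 and -7.06, while the one at 2459 bp was at -2.01 and -2.37 before and at -1.06 and -1.30 after.

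The other large falls differed in channel. HDGF, the hepatoma-derived growth factor (chromosome 1, 861 to 2579 bp), went from 2.78 and 2.5 to -4.18 and -4.68, and its mock IP changed by 5.39 against -1.79 for the SMAD3 IP. Its measured probe at 1528 bp went from 8.35 and 7.46 to -6.24 and -7.31, and the one at 2105 bp stayed between -0.04 and 0.62 in the 4 replicates. B3GNT2, a glycosyltransferase that extends poly-lactosamine chains, went from 4.52 and 3.73 to -2.25 and -2.69, here with the SMAD3 IP at -4.77 and the mock IP at 1.94. ALPK2, an atypical kinase, was the distant case at 46720 to 51314 bp, with 3.41 and 3.35 before and -3.10 and -2.86 after TGFβ1. Only 3 of its 27 probes were measured.

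**Figure D4:**
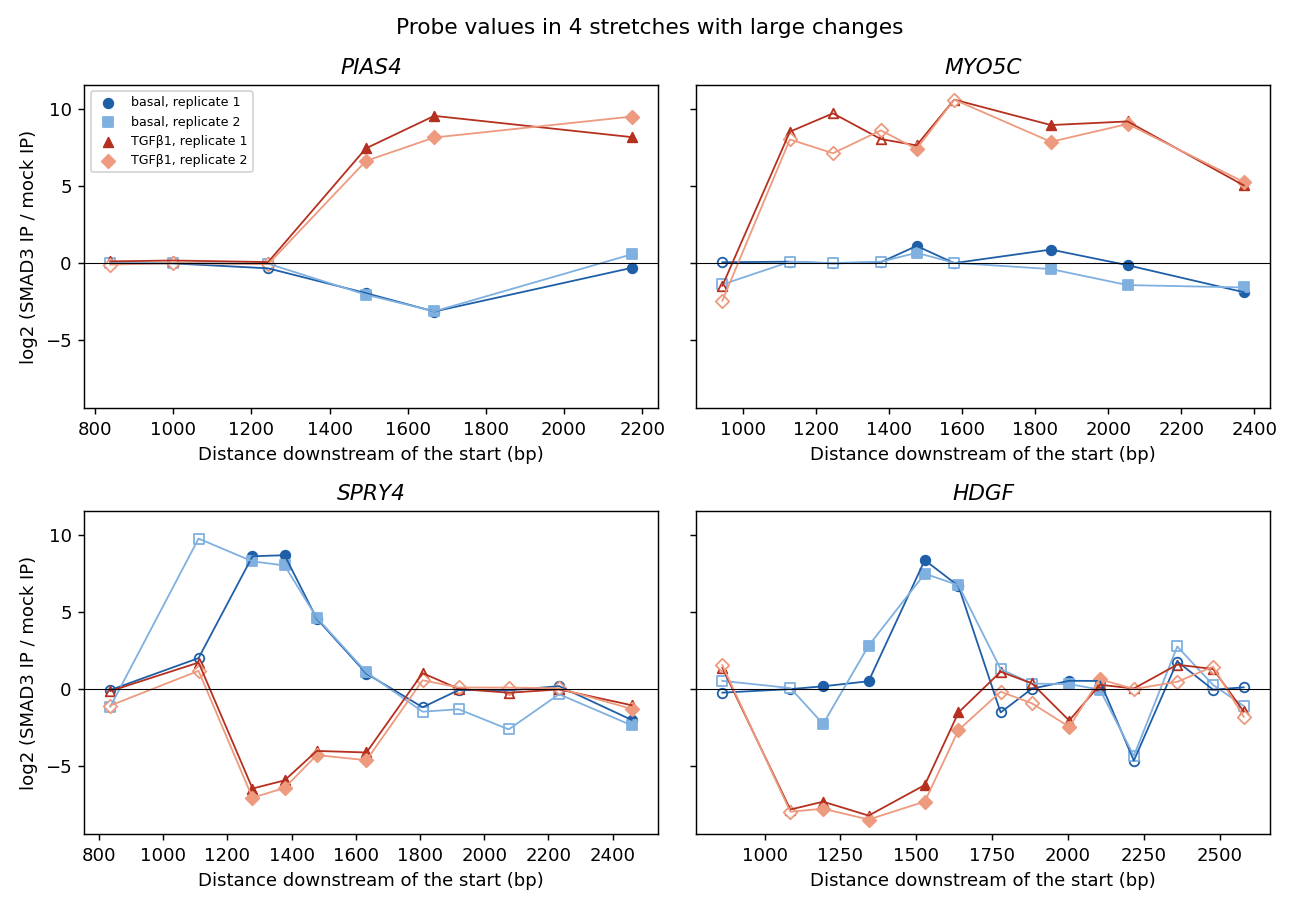
Log2 (SMAD3 IP / mock IP) along the distance downstream of the start for each probe of 4 leading stretches (PIAS4, MYO5C, SPRY4 and HDGF) in each replicate, with filled points measured and open points not. In PIAS4 the probe at 1668 bp lies at -3.14 and -3.13 at the basal level and at 9.55 and 8.14 after TGFβ1, and in SPRY4 the one at 1278 bp at 8.60 and 8.27 before and at -6.47 and -7.06 after.

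The strongest enrichment at the basal level was in SLC25A43, a mitochondrial carrier on chromosome X, with 5.68 and 5.80 against 0.49 and 0.34 after TGFβ1. MOB3A had a mean of 5.31. TMTC1, an O-mannosyltransferase of the endoplasmic reticulum, had 4.49 and 4.29 against 0.50 and 0.60, and NPR3, the natriuretic peptide clearance receptor, 4.35 and 4.11 against -1.65 and -2.04. All of these were lower after TGFβ1 by the test. After TGFβ1 the highest were PIAS4, MYO5C, C8orf33 and MCM7, with means of 8.24, 7.54, 6.82 and 6.70, and PCDHAC2 of the protocadherin alpha cluster, with 6.36 and 6.06 against -0.35 and -0.23 before. With all probes of the stretch the mean after TGFβ1 was 1.91 in C8orf33 and 4.13 in PIAS4.

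Among the 203 stretches enriched in both conditions, CRTAC1, a gene of an extracellular matrix protein, had the highest ratios. It stood at 4.09 and 3.66 at the basal level and at 5.61 and 5.70 after TGFβ1, and rose by 1.78 ± 0.21 (limma adjusted p = 0.000202). AJM1, a component of apical junctions, had 3.19, 3.03, 3.21 and 3.02 in the 4 replicates, with a change of 0.01 (limma adjusted p = 0.98). ID4, an inhibitor of helix-loop-helix factors of the family that TGFβ and BMP signals regulate, had 2.27 and 1.90 before and 2.54 and 2.20 after. CHST7, a sulfotransferase, fell from 3.28 and 3.49 to 2.28 and 1.84 (change -1.33, limma adjusted p = 0.00112). Of the other 6 with the highest ratios in both conditions, SNX18 was lower (change -0.59, limma adjusted p = 0.0456), and ZBTB2, FAM43B, TRIM72, LRRTM3 and CRHR1 did not pass the test, with changes of -0.41 to 0.42.

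The stretches farthest from a start had modest ratios. CACNA2D3, a calcium channel subunit, was covered at 842178 to 849783 bp, with -0.80 and -2.14 before and -0.10 and -0.46 after TGFβ1 (change 1.20 ± 0.39, limma adjusted p = 0.0299). LOC92017 at 449155 to 457147 bp was the other of the 5 farthest that passed the test, with a change of 0.64 (limma adjusted p = 0.023). DOCK3, THSD4 and AOPEP had changes of 0.47, 0.54 and 0.47, with adjusted p of 0.0563, 0.0637 and 0.0538.

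Downstream and core stretches of the same gene showed little relation. In 1415 genes with both, the ratio correlated with r = 0.009 at the basal level and 0.033 after TGFβ1, and the change with r = -0.032, as a description across genes. At the basal level 68 genes had both enriched, which is 42.2% of the 161 genes with an enriched downstream stretch and 12.2% of the 556 with an enriched core. Over all 1415 genes the shares were 39.3% for the core and 11.4% for the downstream stretch. After TGFβ1 42 genes had both, or 38.9% of 108 and 9.15% of 459, with 32.4% and 7.63% over all. PLEK2 and MYO5C are examples, since their cores changed by -1.76 and -1.83 where the downstream stretches rose.

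Genes of the TGFβ pathway were measured downstream in 12 of 31 cases. In this list of ligands, latent binding proteins, receptors, SMADs and their regulators, 3 stretches were higher after TGFβ1, 5 were lower and 4 did not pass the test, with a median change of -0.029 against -0.20 over all stretches. The counts of this list and of those that follow are read against 22.6% higher and 35.8% lower among all stretches, and nothing particular to a list is drawn from them. SKI, a corepressor of SMADs, rose from -1.20 and -1.42 to -0.03 and -0.22 (1.19 ± 0.19, limma adjusted p = 0.00111). The inhibitory SMADs were also higher, SMAD7 from -0.88 and -0.88 to -0.07 and 0.21 and SMAD6 from -0.30 and -0.26 to 0.19 and 0.55. SMAD7 rests on 3 of 10 probes, and its change of 0.95 turned to -1.14 when all probes were used and to -0.82 with probes bright in at least 1 channel. SMAD6 changed by 0.65, which turned to -0.23 with the median of its probes, and both of its channels went down (SMAD3 IP -1.57, mock IP -2.29).

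The falls in this list included members of the latent TGFβ binding protein family and a ligand. LTBP4, which anchors latent TGFβ in the matrix, went from -1.46 and -1.69 to -4.63 and -5.16 (-3.33 ± 0.23, limma adjusted p = 1.25e-05), with the mock IP up by 3.80. LTBP2 went from 0.32 and 0.34 to -0.80 and -0.83, and the ligand TGFB3 from 0.41 and 0.09 to -1.63 and -1.44. FKBP1A, which holds the type I receptor inactive, and TGIF2, a corepressor, changed by -2.27 and -0.87. TGFB1 itself, LTBP3, SMAD3 and PMEPA1 did not pass the test, with changes of 0.13, -0.05, -0.01 and 0.32. For SMAD3 and PMEPA1 this depends on the setting. SMAD3 changed by -1.42 with the median of its probes and by 0.67 with probes bright in at least 1 channel (limma adjusted p = 0.0039 and 0.0319). PMEPA1 passed under loess and normexp (limma adjusted p = 0.0272 and 0.0297), and its change was -0.29 with the median.

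Of 26 TGFβ targets and genes of epithelial-mesenchymal transition, 15 were tested in 16 stretches, of which 3 were higher, 6 lower and 7 not called (median change -0.36). COL7A1, the anchoring fibril collagen, rose at 870 to 2418 bp, from -2.90 and -2.75 to 0.01 and -0.10 (2.78 ± 0.18, limma adjusted p = 1.03e-05). Its SMAD3 IP changed by -0.13 and its mock IP by -2.79, so the rise lay in the mock IP. A second COL7A1 stretch at 25994 to 31126 bp went the other way, from -1.28 and -1.59 to -2.18 and -2.45 (change -0.87, limma adjusted p = 0.00727). ZEB1, a repressor of epithelial genes, and the gelatinase MMP9 rose to ratios over 1.5, ZEB1 from 0.23 and -0.13 to 1.08 and 0.83 and MMP9 from 0.35 and 0.51 to 1.22 and 1.37. The ZEB1 change of 0.90 turned to -0.11 with the median of its probes, and the MMP9 change of 0.87 came to 0.021. Under normexp both calls were lost (limma adjusted p = 0.0847 and 0.507). In MMP9 both channels went down, the mock IP (-1.25) by more than the SMAD3 IP (-0.31).

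CCN2, a matricellular growth factor long known as CTGF, fell from 1.62 and 2.45 to -0.35 and -0.99 (-2.70 ± 0.32, limma adjusted p = 0.000204). MMP2, HMGA2, TAGLN and TIMP1 fell by smaller amounts, with changes of -1.14, -0.92, -0.88 and -0.55, and that of TIMP1 turned to 0.033 with the median. ID3, CDH1, COL1A1, CDH2, JUNB, CDKN1A and SNAI2 did not pass the test, and their changes ran from -0.50 in JUNB to 0.58 in SNAI2.

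In genes of lung epithelium, 11 of 16 were tested, with 2 higher, 5 lower and 4 not called (median change -0.29). With the values as processed here KRT18, a keratin of simple epithelia, had the largest fall of all listed genes, from 0.46 and 1.02 to -5.10 and -5.07. The change was -5.83 ± 0.23 (limma adjusted p = 1.21e-06), with the mock IP up by 4.68 and the SMAD3 IP at -1.08. It rests on 3 of 9 probes and came to -1.98 with all probes, behind JUN (-2.50) and CEBPA (-2.12). Under normexp it was -2.73, behind LTBP4 (-2.93). KRT8, the partner keratin of KRT18, went the other way, from -2.52 and -2.30 to -0.78 and -0.54. The surfactant gene SFTPB went from -2.49 and -2.52 to -0.53 and -0.79. In KRT8 and SFTPB the mock IP changed by -2.54 and -2.34 and the SMAD3 IP by -0.72 and -0.61. The lineage factors CEBPA and NKX2-1 and the genes KRT7 and AQP5 fell, with changes of -1.73, -1.5, -1.27 and -1.13.

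FOXA2, a forkhead factor of lung development, had ratios of -0.05 and 0.10 at the basal level and of 0.40 and 0.61 after TGFβ1. It did not pass the test (0.48 ± 0.19, limma adjusted p = 0.0584), and both of its channels went down (SMAD3 IP -0.37, mock IP -0.92). Under loess it passed, with a change of 0.61 (limma adjusted p = 0.0142). Under normexp and with the median of its probes it did not (limma adjusted p = 0.429 and 0.119). GATA6, a zinc finger factor of the same lineage, was enriched in both conditions, with 1.26 and 1.34 before and 0.88 and 1.14 after. MUC1 and SFTPC had changes of -0.09 and -0.02.

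All 8 AP-1 genes were tested, with 2 higher, 2 lower and 4 not called (median change 0.35). FOS rose from -3.28 and -3.13 to -0.42 and -0.56 (2.71 ± 0.18, limma adjusted p = 1.18e-05), with both channels down, the mock IP by -5.03 and the SMAD3 IP by -2.25. JUND rose from -0.32 and -0.24 to 0.41 and 0.51, with the SMAD3 IP up by 0.60. JUN fell from 0.75 and 0.53 to -0.81 and -1.24, and FOSL1 from 1.91 and 2.19 to 0.05 and 1.09. FOSB, FOSL2, JUNB and ATF3 did not pass the test, with changes of 0.47, 0.24, -0.50 and 0.66.

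Of 18 genes that the study named for SMAD3 binding, 11 were tested in 13 stretches, with 3 higher, 3 lower and 7 not called. The study chose this list on these samples, so it is no independent evidence of direction. S100A2, a calcium-binding protein, was the member not yet described among the calls and went from 0.61 and 0.38 to -0.80 and -0.93. Over all lists, 51 stretches of 49 genes gave 10 higher (19.6%), 19 lower (37.3%) and 22 not called. Under loess all 29 calls held. Under normexp background correction all 29 had the same direction and 20 lost the call. With the median of the probes 13 lost the call and 26 of the 29 had the same direction. The calls of LTBP4, COL7A1 at 870 bp, KRT18, CEBPA, SFTPB and FOS held under both. Those of SKI, TGFB3 and AQP5 held under normexp and were lost with the median (changes of 0.53, -0.37 and -0.56).

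**Figure D5:**
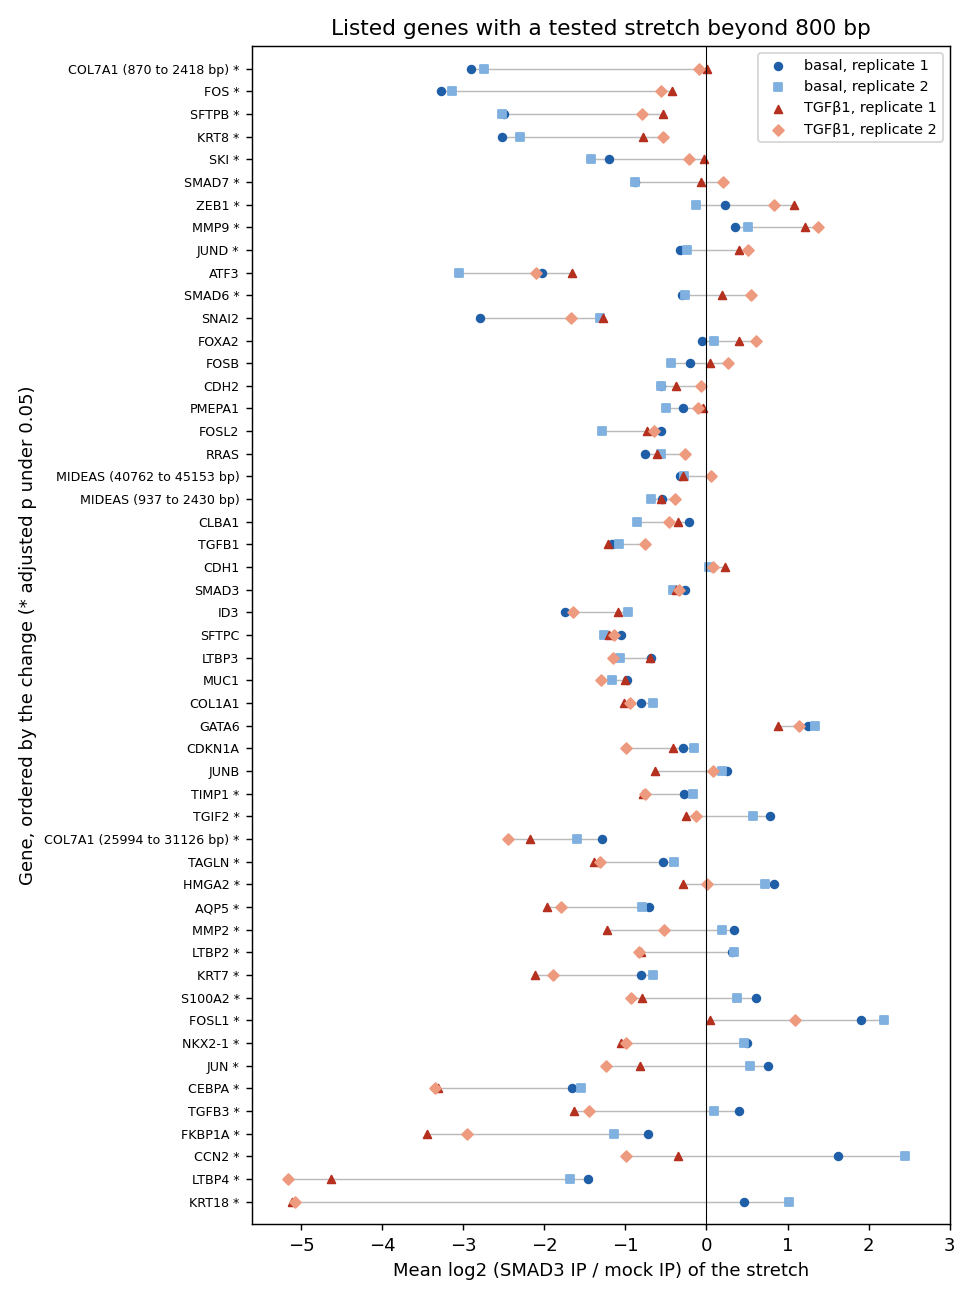
Mean log2 (SMAD3 IP / mock IP) of each of the 51 tested downstream stretches of listed genes in the 4 replicates, ordered by the change after TGFβ1, with an asterisk for an adjusted p under 0.05. COL7A1 and FOS stand at the top with changes of 2.78 and 2.71, and LTBP4 and KRT18 at the bottom with -3.33 and -5.83.

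Around microRNA genes, 513 downstream probes lay within 500 bp of the annotated start of 126 microRNAs, and 161 of them were measured (31.4%). The 25 microRNAs with at least 3 measured probes are described without a test, since these windows were chosen after values had been seen. The conditions did not overlap in 19 of the 25 (76%, against 80.8% of the downstream stretches and 80.4% of all stretches), where the values after TGFβ1 were higher in 7 and lower in 12. Nothing particular to microRNA genes is read from this count. In 2 of the 19 the direction turned under normexp background correction (miR-219a-2 and miR-150).

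The largest difference was around miR-657, at 7782 to 8369 bp from the start of AATK, with -0.51 and -0.36 at the basal level and -3.50 and -3.05 after TGFβ1. Around miR-185 in TANGO2 the values were -1.04 and -0.71 before and -2.52 and -3.00 after, and around miR-199b, encoded opposite to DNM1, -0.98 and -0.98 before and -2.69 and -2.69 after. Around miR-26b, in an intron of CTDSP1, they were -0.79 and -0.60 before and -2.07 and -2.38 after. In these 4 the mock IP was higher after TGFβ1 by 1.1 to 2.998, and the SMAD3 IP changed by -0.72 to 0.78.

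The wider stretches that hold these windows changed less. The AATK stretch of 45 measured probes was lower by 0.70 (limma adjusted p = 0.0126), while the TANGO2, DNM1 and CTDSP1 stretches did not pass the test (limma adjusted p = 0.115, 0.547 and 0.335). Around miR-208a, which lies in the cardiac myosin gene MYH6, the values of 0.93 and 0.92 before and -0.36 and -0.28 after stood within a stretch with a change of -1.26 ± 0.18 (limma adjusted p = 0.000648).

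Higher values after TGFβ1 were seen around miR-203a and miR-200c. The miR-200c family represses ZEB1 in epithelial cells, and its window had -1.56 and -1.66 before and -0.98 and -0.81 after, with the SMAD3 IP at -1.62 and the mock IP at -2.41. Around miR-203a, a microRNA of epithelial differentiation downstream of ASPG, the values were -0.63 and -0.65 before and 0.32 and 0.68 after, again with both channels down (SMAD3 IP -1.47, mock IP -2.67). The stretches around both did not pass the test (limma adjusted p = 0.916 and 0.525). The direction in these 7 windows was the same under loess and under normexp.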

How the data were processed

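SMAD3 ChIP-on-chip arrays of A549 cells were analysed (2 basal and 2 TGFβ1 replicates on 2 slides each, grouped by the sample labels), while the paper describes 3 array replicates. For every spot the authors deposited a red and a green intensity from Agilent Feature Extraction 9.5.1.1, which had subtracted background, detrended and scaled each dye linearly, and a matrix of log2 ratios that differed from these intensities by at most 3.13e-06. Amplified DNA was hybridised, no counts lie behind the values, and signal over background limits their precision, with 38.7% to 51.5% of probes per array well above background in both channels. From each log2 ratio the array's own median was subtracted (0.24 to 0.72), without loess. Control spots and 1404 outlier probes were left out.

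Distances were read from the array annotation with RefSeq starts. Of the downstream probes, 169844 were named through an accession of the RefSeq table, 5163 by symbol or synonym and 1495 by the name in the file. Stretch means were tested with limma 3.58.1 (no covariates, all 4 replicates), after a test on simulated data. The peak program of the methods was not used here. Probe sequences were not used here, so a planned motif search was not run.

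The members and gene lists were chosen with earlier results of these data known. Named genes were the listed genes, the 6 largest changes each way, the 5 highest enriched stretches per condition, 10 enriched in both and the 5 farthest. Some results are not reported here. Alternatives comprised normexp (offset 50), loess, the deposited matrix, other filters on dim probes, a distance of 2000 bp, single slides, 2 or 5 probes per stretch, the median, whole genes, a variance trend, a replicate block and leaving out each replicate. Python 3.11.15, numpy 2.4.6, pandas 2.3.3, matplotlib 3.10.9 and R 4.3.3 were used.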

Additional observations from a re-analysis of the deposited data

How the results depend on the processing

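Counts are given as stretches higher and lower after TGFβ1, then enriched at the basal level and after TGFβ1, against 1493, 2394, 698 and 512 in the analysis reported. Normexp gave 340, 656, 260 and 434, which turns the order of the conditions in enrichment. Loess gave 1602 and 1523 enriched. All probes without a filter gave 2743 higher and 3359 lower, but among 18030 tested stretches in place of 6633. The shares were thus smaller, with 15.2% higher against 22.5% and 18.6% lower against 36.1%. Probes beyond 2000 bp gave 654, 1105, 263 and 184. Slide 1 alone gave 514, 815, 329 and 257, and slide 2 alone 370 and 259 enriched. At least 5 probes per stretch gave 923, 1550, 370 and 254. The last 4 settings tested fewer stretches. The cause of the other differences was not tested. The difference between downstream and core medians over all probes was -0.0342 in basal cells and -0.0308 in stimulated cells. At the basal level it came to -0.161 with loess, -0.794 and -0.757 with probes bright in both channels or in any, and -0.0541 on slide 1. After TGFβ1 it was -0.0514 with normexp, -0.189 with loess, -0.849 and -0.797 with those filters, -0.0365 on slide 1 and -0.0149 on slide 2. It was negative throughout.

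Leaving out each replicate gave 1211 to 1344 higher, 2000 to 2175 lower, 690 to 726 and 502 to 518 enriched, and medians of -0.0467 to -0.0217 and -0.0342 to -0.0273. With the replicate block 1566 were higher and 2507 lower, but deviations of samples with the same number correlated with r = 0.049 only, so the numbers were not taken as pairs. Starts of every source, chosen after seeing the data, gave 1371, 2166, 617 and 451. Of the 3887 calls of a change, 978 were shared with normexp, 3699 with loess and 2285 with the median of the probes. With the median 298 had the opposite sign and 28 were called the opposite way, and with all probes 240 and 59. Of 262 values of the 22 results taken by the rule for named genes under the alternatives, 260 had the same direction and call. MOB3A and TMTC1 lost basal enrichment under normexp. Part of these values could not differ, since the deposited matrix, the variance trend and the replicate block leave the estimates as they are. For enrichment, leaving out a replicate of the other condition does so too. These stretches were chosen as the most extreme, and some enter under several results. The count is thus no measure of how stable other calls are. The filter on both channels leaves out probes that are bright in 1 condition alone.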
